A study of Mus musculus with 18 samples.

Results

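The interferon-inducible p200 family, also called the Ifi200, HIN-200 or PYHIN family, was followed in B16F10 melanomas across 6 intratumoral treatments. The members are the 8 genes Ifi203, Ifi204, Ifi205, Ifi207, Ifi209, Ifi211, Mndal and Aim2, taken by symbol from the 41079 genes of the expression table, and all 8 had a row. Their expression is given in FPKM (fragments divided by the length of the gene in kilobases and scaled to a library of 1000000 fragments). The tumors came from B16F10, an established mouse melanoma line, grown under the skin of the flank in female C57BL/6 mice. Treatment into the tumor began on day 6 and was repeated every 2 days, and tissue was taken 48 h after the last injection. There were 18 tumors, 3 in each of 6 groups, and all of them, the PBS controls included, carried the same B16F10 cells and the same schedule of injections. PBS tumors received the buffer. Free PS473 tumors received PS473, a Pistol ribozyme built to cut the mRNA of PD-L1, without a carrier. PS473@CPs tumors received PS473 with cationic polymers. NKMOF-101-[Mn] tumors received the manganese metal-organic framework without a ribozyme. M5@NKMOF-101-[Mn] tumors received the framework with a mutant ribozyme that does not cut. PS473@NKMOF-101-[Mn] tumors received the framework with PS473. The sample titles of the last group name the framework NKMOF-102, while its treatment text and the design text name NKMOF-101. The labels do not say whether each tumor came from a separate mouse, so the p-values measure the spread between these tumors.

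Each library held 17200000 to 28400000 fragments assigned to genes, as recovered from the steps between low FPKM values. Melanocyte markers were present in every tumor, with Dct between 2087 and 3416 FPKM. Cd274, the gene for PD-L1 and the target of the ribozyme, lay at 16.5 ± 4.64 FPKM (SD, n = 3) in PBS tumors and at 19.9 ± 11.9 FPKM in PS473@NKMOF-101-[Mn] tumors, where single tumors held 17.0, 32.9 and 9.74 FPKM. Those groups overlapped, and the log2 fold change was 0.13 ± 0.34 (SE, limma adjusted p = 0.993). Cd274 transcript therefore gave no check of the labels. Skin epithelium markers ranged from a summed 1.93 FPKM to 5055 FPKM between tumors, so the pieces differed widely in skin transcripts. The amount of skin in each piece was not tested.

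Proteins of the p200 family carry a C-terminal HIN domain that binds DNA, and most also carry an N-terminal pyrin domain through which they meet partner proteins. Aim2 binds double-stranded DNA in the cytosol and recruits ASC (gene Pycard) and caspase-1 (gene Casp1) to form an inflammasome, which processes interleukin-1 beta. Ifi204 is a DNA-binding member that has been placed upstream of STING and type I interferon in mouse macrophages. The other members are less well characterised. Interferons raise most of these genes through transcription factors that bind interferon-stimulated response elements (ISREs), and their transcripts are abundant in macrophages, dendritic cells and lymphocytes. The family forms 1 cluster on chromosome 1, where RefSeq places the genes in the order Aim2, Ifi206, Ifi214, Ifi213, Ifi209, Ifi208, Ifi207, Ifi204, Mndal, Ifi211, Ifi203, Ifi202b and Ifi205, with pseudogenes between some of them.

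Promoter sequences show what the members share beside their symbols, and are given here because the family was measured in tissue with wide differences in interferon-stimulated transcripts. RefSeq windows of 300 bases on build GRCm38.p6, from 250 bases before to 50 bases after a transcription start, were matched for 7 of the 8 members. Ifi203 and Mndal each had windows for a pair of starts, giving 9 windows. The ISRE core GAAANNGAAA was searched on both strands, where the reverse reads TTTCNNTTTC. It was found in 6 of the 9 windows and in 5 member genes, namely Ifi203, Ifi205, Ifi207, Ifi211 and Mndal, against 3.44% of all 32851 windows. The downstream Mndal window held only a reverse match, TTTCTCTTTC, from -54 to -45 bases of its start. Ifi205 held a further reverse match, TTTCACTTTC, 24 to 33 bases after its start. Both lie outside the stretches listed below. The GAS motif TTCNNNGAA, which reads alike on both strands and whose closing letters can overlap the opening of the ISRE core, was found in 0 member windows against 8.3% of all windows. The stretches of 50 bases around the match closest to the shared core are listed 5′ to 3′ in the direction of the gene, with the 10 core bases in capitals:
Ifi203 (chr1:173942498-173942547, minus strand): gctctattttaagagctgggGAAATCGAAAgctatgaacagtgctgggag
Mndal (chr1:173880194-173880243, minus strand): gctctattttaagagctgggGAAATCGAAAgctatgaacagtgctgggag
Ifi207 (chr1:173741821-173741870, minus strand): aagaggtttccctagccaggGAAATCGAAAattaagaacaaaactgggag
Ifi211 (chr1:173913054-173913103, minus strand): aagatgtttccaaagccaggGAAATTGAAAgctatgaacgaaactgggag
Ifi205 (chr1:174031860-174031909, minus strand): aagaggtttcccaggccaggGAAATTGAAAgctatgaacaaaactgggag
Ifi209 (chr1:173630760-173630809, plus strand): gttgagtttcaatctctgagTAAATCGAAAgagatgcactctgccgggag

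The Ifi203 and Mndal stretches differed at 0 of 50 bases, the Ifi205 and Ifi211 stretches at 4 and the Ifi205 and Ifi207 stretches at 6. Capitals begin 35 bases before the start in Ifi203, 36 in Mndal, 41 in Ifi207, 37 in Ifi211, 134 in Ifi205 and 79 in Ifi209. The exact run GAAATCGAAA occurred in 16 of 32851 windows on either strand, or 0.0487%, and 7 of those 16 windows belonged to p200 family genes, 3 of them members. That run was picked as the commonest core match on the gene strand of the family's own windows. Its share in the family therefore follows in part from that choice and was not tested. Ifi209 differs from that run by G1T, counted from 1 at the first capital, and so does not hold the ISRE core. A run within 1 mismatch was present in 1.38% of windows. Aim2 held neither motif. A match is a description of letters and not of binding, and no binding data were analysed here.

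**Figure D1:**
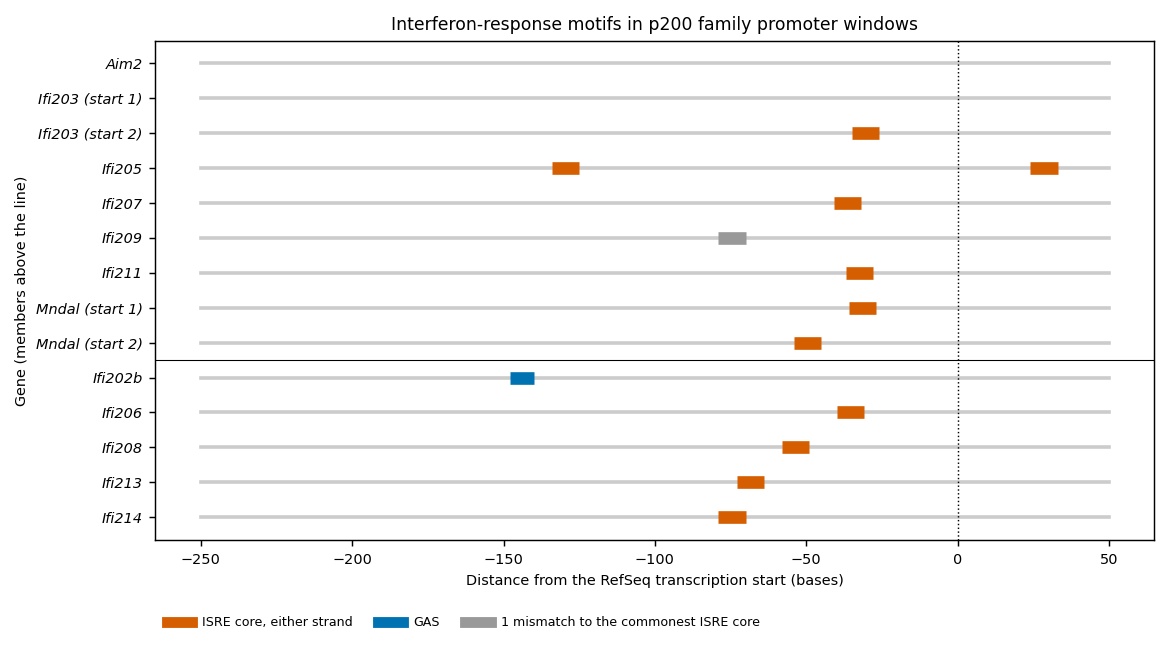
Positions of the ISRE core (orange), the GAS motif (blue) and the 1-mismatch run of Ifi209 (grey) in the RefSeq promoter windows of p200 family genes, as distance in bases from the transcription start (dotted line); grey lines are the 300-base windows. Ifi203 and Mndal have a window for each of 2 starts, numbered as the table lists them, and 5 of the 7 members with a window hold an ISRE core.

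Near-identical members share transcript sequence, which bears on how fragments could be assigned. Among GENCODE M21 transcripts, 63.6% of the 75-base runs of Ifi211 also occurred in another gene, mostly Ifi205 (40.6%) and Ifi204 (23%), and 23.1% of those of Ifi209 also occurred in Ifi214. The shares were 16.6% for Ifi205, 13.2% for Ifi204, 11.1% for Mndal, 5.71% for Ifi203, 2.8% for Ifi207 and 0% for Aim2. How the authors assigned fragments that match several genes is not given in the sources used here, so values of Ifi211, and to a lesser degree of Ifi209, Ifi205 and Ifi204, are uncertain as levels of 1 gene. The gene lengths behind the FPKM values also differed, from 2431 bases for Ifi211 to 15399 bases for Aim2.

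Per gene length, Ifi203 was the most abundant member, with a mean of 4.77 FPKM over 18 tumors, followed by Ifi204 (4.41 FPKM), Ifi211 (3.48 FPKM) and Mndal (2.79 FPKM). These 4 genes averaged 1 FPKM or more, the filter that 12357 genes in all passed. Ifi209 (0.983 FPKM), Ifi207 (0.969 FPKM), Ifi205 (0.641 FPKM) and Aim2 (0.122 FPKM) did not. Aim2, the inflammasome sensor of the family, was therefore its least abundant member per gene length, over a length of 15399 bases. By fragments it was not the lowest. Aim2 held 11 to 78.5 fragments per tumor (median 37.75) and Ifi205 1 to 92 (median 24.5), whereas Ifi203 rested on 298 to 2639 fragments. Every member was above 0 in all 18 tumors.

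Ifi203 measured 4.43, 4.04 and 3.91 FPKM in PBS tumors 1 to 3, 2.33, 1.40 and 3.32 FPKM in Free PS473 tumors, and 2.80, 4.64 and 7.09 FPKM in PS473@CPs tumors. With the framework it measured 5.31, 3.40 and 4.49 FPKM in NKMOF-101-[Mn] tumors, 5.49, 5.84 and 5.27 FPKM in M5@NKMOF-101-[Mn] tumors, and 4.39, 15.1 and 2.53 FPKM in PS473@NKMOF-101-[Mn] tumors. The highest group mean, 7.35 ± 6.80 FPKM for PS473@NKMOF-101-[Mn] (SD, n = 3), rested on tumor 2, which stood 4.37 times above the mean of the other tumors of its group. All Free PS473 tumors lay below all PBS tumors and all NKMOF-101-[Mn] tumors for Ifi203, a separation that 2.13% and 4.08%, respectively, of the 18312 genes averaging 0.1 FPKM or more also showed in that direction.

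Ifi204, the member placed upstream of STING, measured 2.29, 3.66 and 3.38 FPKM in PBS tumors, 1.18, 0.775 and 4.06 FPKM in Free PS473 tumors, and 1.83, 7.18 and 7.26 FPKM in PS473@CPs tumors. It stood at 5.89, 3.31 and 6.02 FPKM in NKMOF-101-[Mn] tumors, 5.12, 6.04 and 4.78 FPKM in M5@NKMOF-101-[Mn] tumors, and 1.92, 11.2 and 3.47 FPKM in PS473@NKMOF-101-[Mn] tumors. Of the 6 group means, 4 fell between 5.07 and 5.54 FPKM, and the groups next to each other in order overlapped throughout.

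Ifi211 measured 2.48, 3.02 and 2.25 FPKM in PBS tumors, 1.04, 0.994 and 2.95 FPKM in Free PS473 tumors, and 1.45, 3.86 and 6.62 FPKM in PS473@CPs tumors. The framework groups held 4.37, 2.08 and 3.18 FPKM for NKMOF-101-[Mn], 5.15, 4.28 and 5.36 FPKM for M5@NKMOF-101-[Mn], and 2.28, 8.87 and 2.40 FPKM for PS473@NKMOF-101-[Mn]. The highest mean, 4.93 ± 0.571 FPKM, was that of M5@NKMOF-101-[Mn], with all 3 tumors above every PBS tumor, as in 4.28% of the 18312 genes, and above every Free PS473 tumor, as in 5% of them.

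Mndal, named for its likeness to the human myeloid nuclear differentiation antigen, measured 1.96, 2.37 and 2.21 FPKM in PBS tumors, 1.32, 0.824 and 2.29 FPKM in Free PS473 tumors, and 1.65, 2.99 and 4.39 FPKM in PS473@CPs tumors. Values in the framework groups were 3.11, 2.27 and 2.72 FPKM for NKMOF-101-[Mn], 3.39, 3.47 and 3.11 FPKM for M5@NKMOF-101-[Mn], and 2.56, 7.59 and 2.01 FPKM for PS473@NKMOF-101-[Mn]. Mndal and Ifi203 ranked the 6 groups in the same order, with PS473@NKMOF-101-[Mn] first and Free PS473 last.

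**Figure D2:**
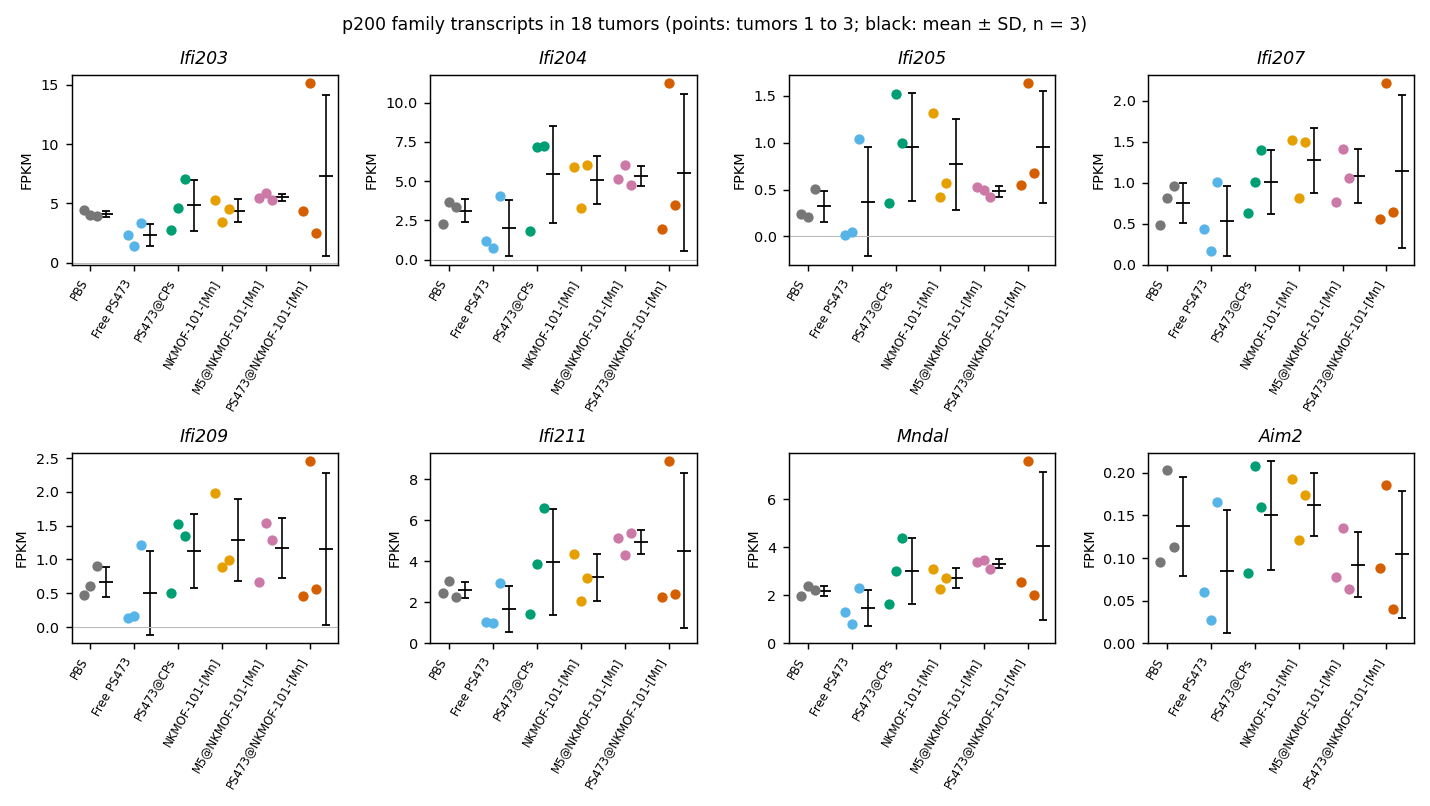
FPKM of the 8 p200 family genes in each tumor, by group. Points are tumors 1 to 3 of a group from left to right, black marks are the mean ± SD (n = 3), and each panel has its own vertical axis; PS473@NKMOF-101-[Mn] tumor 2 is the highest point in all panels but that of Aim2.

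The weaker members varied with wider counting error. Ifi205 ran from 0.0201 FPKM, or 1 fragment, in Free PS473 tumor 1 to 1.63 FPKM in PS473@NKMOF-101-[Mn] tumor 2, with a median of 0.516 FPKM. It alone of the 8 members was higher in all PS473@NKMOF-101-[Mn] tumors (0.551, 1.63 and 0.672 FPKM) than in all PBS tumors (0.242, 0.212 and 0.504 FPKM), as were 2.42% of genes, and than in all M5@NKMOF-101-[Mn] tumors (0.528, 0.492 and 0.418 FPKM), as were 2.3% of genes. The margin to the nearest tumor of either group was small against the SD of 0.594 FPKM within PS473@NKMOF-101-[Mn].

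Ifi207 ran from 0.174 to 2.22 FPKM (median 0.891 FPKM) and Ifi209 from 0.135 to 2.45 FPKM (median 0.896 FPKM). For both, NKMOF-101-[Mn] had the highest mean, at 1.28 ± 0.399 and 1.29 ± 0.606 FPKM, and Free PS473 the lowest, at 0.541 ± 0.426 and 0.505 ± 0.617 FPKM. Aim2 ran from 0.0278 FPKM in Free PS473 tumor 2 to 0.208 FPKM in PS473@CPs tumor 2 (median 0.117 FPKM). Its group means lay between 0.0845 ± 0.0722 FPKM in Free PS473 and 0.163 ± 0.037 FPKM in NKMOF-101-[Mn]. All pairs of groups overlapped for Ifi207, Ifi209 and Aim2.

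Across the family, Free PS473 had the lowest mean for 7 of 8 members, Ifi205 being the exception with its lowest mean in PBS. Within Free PS473 the tumors were unequal. The summed FPKM of the 8 members was 6.53 in tumor 1 and 4.40 in tumor 2, the lowest values of all 18 tumors, and 16.1 in tumor 3, above all 3 PBS tumors (12.5 to 14.9). PS473@NKMOF-101-[Mn] was unequal in the other direction, with sums of 12.8, 49.3 and 12.3, so that its tumors 1 and 3 stood within or just below the PBS range and tumor 2 above every other tumor. The ratio of tumor 2 to the mean of its companions ran from 2.67 for Ifi205 to 4.81 for Ifi209. M5@NKMOF-101-[Mn] tumors stood close together at 21.2, 23.2 and 21.3. Expressed as SD over mean, the median over the 8 members was 12% in M5@NKMOF-101-[Mn], 27.8% in PBS and 82.5% in PS473@NKMOF-101-[Mn].

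**Figure D3:**
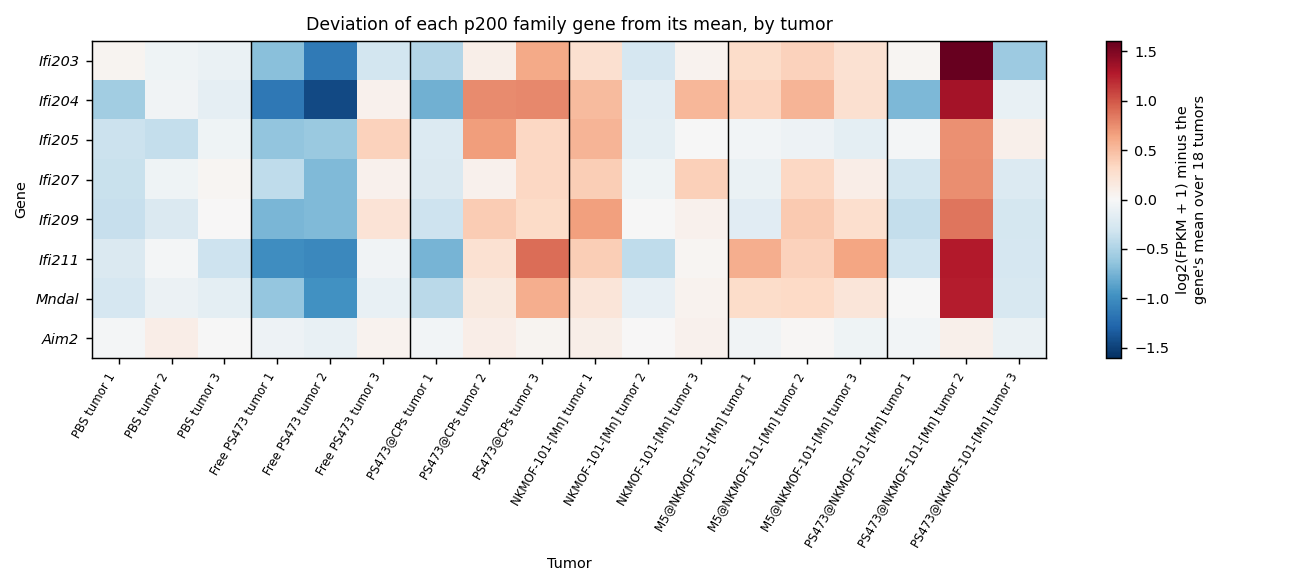
Deviation of each member's log2(FPKM + 1) from its own mean over 18 tumors, with genes in rows, tumors in columns and black lines between groups. PS473@NKMOF-101-[Mn] tumor 2 is the highest of all tumors for 7 of 8 members and Free PS473 tumors 1 and 2 hold the lowest value of each member, while Aim2 moves little on this scale because its level is low.

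Differences between groups were tested with limma on log2(FPKM + 1) over all 12357 genes, so a fold change refers to values with 1 added and is smaller than the true ratio for weak genes. For PS473@NKMOF-101-[Mn] against PBS, 0 of the 4 tested members passed an adjusted p of 0.05, as did 0% of all genes. Their log2 fold changes were 0.40 ± 0.41 for Ifi203, 0.42 ± 0.51 for Ifi204, 0.42 ± 0.43 for Ifi211 and 0.51 ± 0.33 for Mndal (± SE, limma adjusted p = 0.993 for each). The median of 0.42 stood beside a median of -0.01 over all genes, and at an unadjusted p under 0.05 there were 0 of 4 members and 2.1% of genes. Without PS473@NKMOF-101-[Mn] tumor 2, the differences for Ifi203, Ifi204 and Ifi211 turned to -0.23, -0.17 and -0.10 and that for Mndal fell to 0.04.

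Against Free PS473, the ribozyme without a carrier, the 4 tested members stood 0.91 to 1.05 log2 units higher in PS473@NKMOF-101-[Mn] tumors. Ifi203 differed by 1.05 ± 0.41 and Mndal by 0.91 ± 0.33 (limma adjusted p = 0.946 and 0.908). Ifi204 differed by 1.01 ± 0.51 and Ifi211 by 0.92 ± 0.43 (limma adjusted p = 0.96 for both). None of the 4 passed the adjusted threshold, as did 0% of all genes, and 2 of 4, Ifi203 and Mndal, had an unadjusted p under 0.05, against 4.98% of all genes. With weights per tumor in the fit, which did not converge and gave Free PS473 tumor 1 a weight of 17.1, 2 of 4 passed (Ifi203 at 1.08 and Mndal at 0.94), as did 5.32% of genes. Leaving out PS473@NKMOF-101-[Mn] tumor 2 lowered the 4 values to 0.42, 0.42, 0.40 and 0.44 for Ifi203, Ifi204, Ifi211 and Mndal. The 2 groups overlapped for all 8 members, and Free PS473 tumor 3 lay among the PS473@NKMOF-101-[Mn] tumors for each. For Aim2, Free PS473 tumor 1 (0.0598 FPKM) also lay above PS473@NKMOF-101-[Mn] tumor 3 (0.0397 FPKM).

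Differences from the remaining 3 treated groups were smaller. Against PS473@CPs the 4 values ran from -0.09 for Ifi204 to 0.27 for Ifi203, against NKMOF-101-[Mn] from -0.13 for Ifi204 to 0.34 for Ifi203, and against M5@NKMOF-101-[Mn] from -0.30 for Ifi211 to 0.06 for Mndal. The median standard error over the 4 genes was 0.42 in each of these. By limma's adjusted p, 0 of 4 members and 0% of genes passed in all 3 comparisons, and at an unadjusted p under 0.05 there were 0 of 4 members in each, against 2.29%, 2.3% and 0.591% of genes. The last of these pairs differs in whether the ribozyme can cut, and its median over the members was -0.08.

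Among the other groups against PBS, 0 of 4 members and 0% of genes passed in each comparison by limma. All 4 members were lower in Free PS473, by -0.40 (Mndal) to -0.66 (Ifi203), with 0 of 4 at an unadjusted p under 0.05 against 1.81% of genes. The sizes rested on single Free PS473 tumors. Without tumor 2 the values were -0.43 for Ifi203, -0.29 for Ifi204, -0.33 for Ifi211 and -0.20 for Mndal, and without tumor 3 they were -0.86, -1.05, -0.82 and -0.63. In PS473@CPs they ranged from 0.12 (Ifi203) to 0.50 (Ifi204) and in NKMOF-101-[Mn] from 0.06 (Ifi203) to 0.55 (Ifi204), again with 0 of 4 against 2.09% and 1.46% of genes. M5@NKMOF-101-[Mn] tumors gave 0.35 (Ifi203), 0.63 (Ifi204), 0.73 (Ifi211) and 0.44 (Mndal), with 0 of 4 against 1.51% of genes. Those 4 genes were nevertheless higher in every M5@NKMOF-101-[Mn] tumor than in every PBS tumor, which 4.28% of those 18312 genes also were.

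The other 3 treated groups were also set against Free PS473, comparisons chosen after the values were seen. In M5@NKMOF-101-[Mn], the group whose tumors differed least by the median of SD over mean, Ifi211 was 1.23 ± 0.43 higher, Ifi204 1.22 ± 0.51, Ifi203 1.00 ± 0.41 and Mndal 0.84 ± 0.33 on the log2 scale, with limma adjusted p-values of 0.644 to 0.759. By the adjusted p 0 of 4 members and 0% of genes passed. All 4 had an unadjusted p under 0.05, against 6.12% of genes, and all 4 were higher in every M5@NKMOF-101-[Mn] tumor than in every Free PS473 tumor, as were 5% of genes. With the unconverged tumor weights all 4 passed the adjusted threshold of limma, as did 26% of genes. In NKMOF-101-[Mn], the framework without a ribozyme, the values were 1.14 ± 0.51 for Ifi204, 0.71 ± 0.41 for Ifi203, 0.70 ± 0.43 for Ifi211 and 0.62 ± 0.33 for Mndal. In PS473@CPs they were 1.10 ± 0.51, 0.78 ± 0.41, 0.83 ± 0.43 and 0.68 ± 0.33 for the same genes. Every adjusted p of limma in these comparisons was 1.00, with 0 of 4 members and 0% of genes called, and 1 of 4, Ifi204, had an unadjusted p under 0.05 in each, against 3.08% and 4.17% of genes. With the tumor weights 3 of 4 passed in NKMOF-101-[Mn], as did 11.3% of genes. The 4 tested members were thus higher than Free PS473 in each of the other treated groups, and these comparisons share the same 3 Free PS473 tumors. The 4 members also varied together from tumor to tumor, so a count of 4 of 4 does not stand for 4 separate observations.

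The 9 tumors of the 3 framework groups were compared with the 9 tumors without it. The groups without it were PBS, Free PS473 and PS473@CPs, so ribozyme and polymer were not matched between the sides. Free PS473 also had the lowest mean of the 6 groups for all 4 tested members. The members differed by 0.45 ± 0.24 (Ifi203), 0.56 ± 0.29 (Ifi204), 0.51 ± 0.25 (Ifi211) and 0.43 ± 0.19 (Mndal), each with a limma adjusted p of 0.90. Without PS473@NKMOF-101-[Mn] tumor 2 these were 0.24, 0.36, 0.33 and 0.27, the lowest values with any 1 tumor left out. Again 0 of 4 members and 0% of genes passed, and 1 of 4, Mndal, had an unadjusted p under 0.05 against 4.56% of genes. Against PS473@CPs alone, the median over the 4 members was 0.16 for PS473@NKMOF-101-[Mn], -0.06 for NKMOF-101-[Mn] and 0.20 for M5@NKMOF-101-[Mn]. The part of the framework itself was not tested. The difference between the PS473 effect with the framework (PS473@NKMOF-101-[Mn] minus NKMOF-101-[Mn]) and without a carrier (Free PS473 minus PBS) was 0.99 ± 0.59 for Ifi203, 0.46 ± 0.72 for Ifi204, 0.72 ± 0.61 for Ifi211 and 0.69 ± 0.47 for Mndal on the log2 scale (limma adjusted p = 1.00 for each, 0 of 4 members and 0% of genes called, and 0 of 4 members against 2.68% of genes at an unadjusted p under 0.05). A test for any difference among the 6 groups gave 0 of 4 members at the adjusted threshold (0% of genes) and 0 of 4 at an unadjusted p under 0.05 (1.99% of genes), and 4 of 4 members with the unconverged tumor weights (18.7% of genes).

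**Figure D4:**
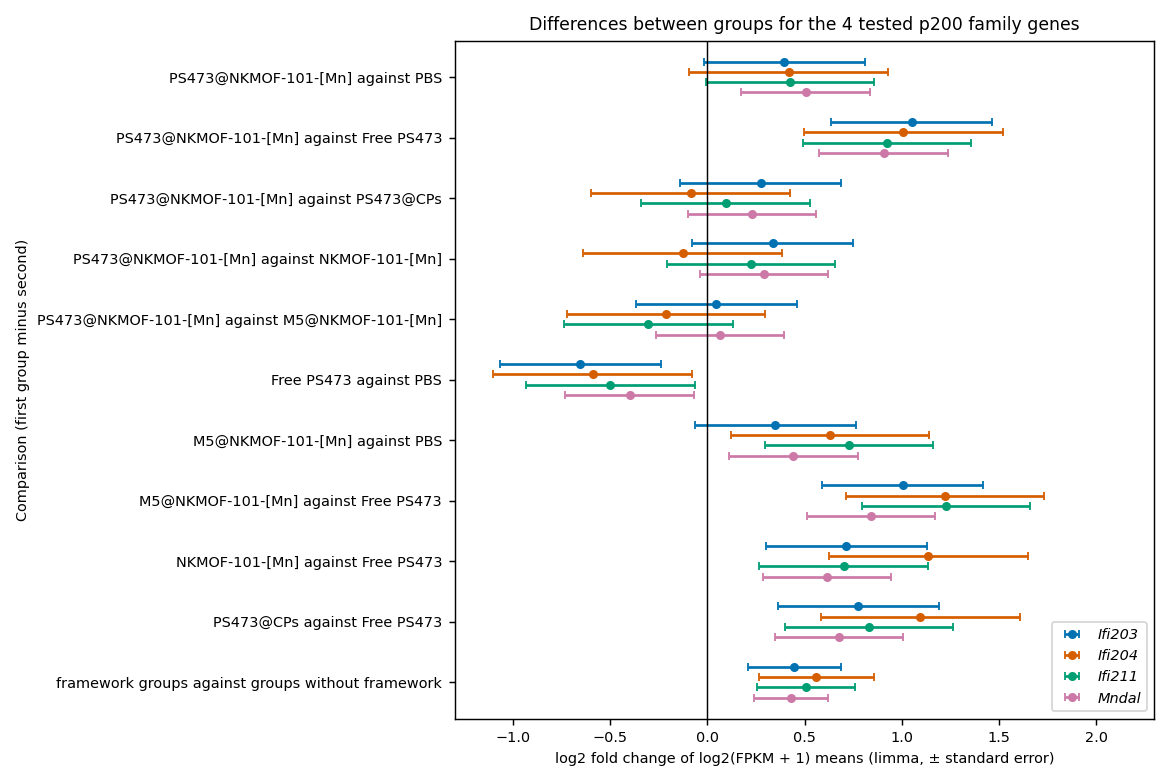
Differences in mean log2(FPKM + 1) between groups for Ifi203, Ifi204, Ifi211 and Mndal, as the limma estimate (points) ± standard error (bars), with the first named group minus the second. The 4 groups set against Free PS473 give values from 0.62 to 1.23, and none passed an adjusted p of 0.05 in this fit without tumor weights.

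With the filter lowered to a mean of 0.1 FPKM all 8 members could be fitted among 18312 genes. The 4 weak members then gave 0.55 ± 0.29 (Ifi205), 0.43 ± 0.27 (Ifi207), 0.48 ± 0.34 (Ifi209) and 0.03 ± 0.07 (Aim2) for PS473@NKMOF-101-[Mn] against Free PS473, with limma adjusted p-values of 0.972 to 0.995. Of the 18312 genes, 0% passed the adjusted threshold and 4.93% an unadjusted p under 0.05 in that comparison, and 0 of these 4 members did either. For M5@NKMOF-101-[Mn] against PBS they gave 0.17, 0.24, 0.37 and -0.06, with SEs of 0.29, 0.27, 0.34 and 0.07 (limma adjusted p = 1 for each), and 0 of 4 passed either threshold against 0% and 2.23% of genes. Aim2 was thus the member with the smallest values in both comparisons, on a scale that compresses levels below 1 FPKM.

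The members varied together from tumor to tumor. Over 18 tumors, the 28 pairs of members had Pearson correlations of log2(FPKM + 1) from 0.543 to 0.974, with a median of 0.835, and the 21 pairs without Aim2 ran from 0.663 upward. Ifi203 and Mndal formed the closest pair, at 0.974, and 1.87% of the 75-base runs of Ifi203 occur in Mndal. Aim2 was the least alike, with a highest value of 0.728. Points in these correlations are tumors, which share their library, their depth and their mix of cells across all genes, so the values describe these 18 tumors and carry no test.

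The mean log2(FPKM + 1) of the 8 members was compared with each of the 12353 other genes that passed the filter. The 10 genes with the highest correlation were Phf11b (0.974), Casp1 (0.969), Sp110 (0.961), Tap2 (0.957), Gbp9 (0.956), Gbp5 (0.949), Tapbp (0.944), Gbp3 (0.938), H2-T23 (0.937) and C1ra (0.934), against a median of -0.036 over all genes. Casp1 encodes the protease of the inflammasome, Tap2 and Tapbp serve peptide loading of MHC class I, H2-T23 encodes a non-classical class I molecule, Gbp3, Gbp5 and Gbp9 encode guanylate-binding proteins, Sp110 a nuclear body protein and C1ra a protease of the classical complement pathway. Taken within groups, after removing each group's mean, the 10 values were 0.927 to 0.978. Without Free PS473 tumor 2 and PS473@NKMOF-101-[Mn] tumor 2, the tumors farthest from the median, they were 0.866 to 0.954. In all, 40 genes exceeded 0.9.

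Other genes of DNA sensing followed the family as a list. The mean of 11 of them correlated with the family's mean at 0.959 over 18 tumors (Spearman 0.930), and that of 12 inflammasome partners at 0.843 (Spearman 0.843). Without the 2 tumors farthest from the median the values were 0.918 and 0.775. Single partners differed. Sting1 followed the family at 0.773 and Pycard, the adaptor of the inflammasome, at 0.452, while Cgas, the enzyme that makes the second messenger for STING, stood at 0.12. Of 11 other DNA sensing genes 9 were tested. In PS473@NKMOF-101-[Mn] against Free PS473, 6 were higher and 3 lower with a median of 0.11. Of these 9, 0 passed the adjusted threshold of limma and 3 had an unadjusted p under 0.05, against 4.98% of all genes. Without PS473@NKMOF-101-[Mn] tumor 2, 4 of 9 were higher with a median of -0.005. Then 1 had an unadjusted p under 0.05, against 6.18% of all genes. The most abundant were Samhd1 (21.6 FPKM), which degrades deoxynucleotides, Unc93b1 (17.7 FPKM), a chaperone of endosomal Toll-like receptors, and Zbp1 (12.6 FPKM), a sensor of Z-form nucleic acids that ran from 1.35 FPKM in Free PS473 tumor 1 to 42.7 FPKM in PS473@NKMOF-101-[Mn] tumor 2. Among 12 inflammasome partners 6 were tested, 5 of them higher in that comparison with a median of 0.41, and 0 passed. Without PS473@NKMOF-101-[Mn] tumor 2, 5 of 6 were higher with a median of 0.15.

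Genes upstream and downstream of interferon were compared in the same way. Of 15 interferon signalling genes 14 were tested. For PS473@NKMOF-101-[Mn] against Free PS473, 11 were higher and 0 passed the adjusted threshold of limma. At an unadjusted p under 0.05 there were 5, against 4.98% of all genes. The median over the 14 was 0.32. Without PS473@NKMOF-101-[Mn] tumor 2, 8 of 14 were higher with a median of 0.08. Then 4 had an unadjusted p under 0.05, against 6.18% of all genes. Irf1, an interferon-induced transcription factor, ran from 7.78 FPKM in Free PS473 tumor 1 to 40.9 FPKM in PS473@NKMOF-101-[Mn] tumor 2. Ifngr2, a subunit of the interferon gamma receptor, was highest in Free PS473 tumor 3 (32.5 FPKM). All 29 other interferon-stimulated genes were tested. In the same comparison 29 of 29 were higher with a median of 1.16, 0 passed the adjusted threshold and 24 had an unadjusted p under 0.05, against 4.98% of all genes. Against PBS, 29 of 29 were higher with a median of 0.61, and 5 had an unadjusted p under 0.05, against 2.1% of all genes. PS473@NKMOF-101-[Mn] tumor 2 carried most of that difference. The list's mean log2(FPKM + 1) was 3.74, 4.99 and 3.34 in PS473@NKMOF-101-[Mn] tumors 1 to 3 and 3.67, 3.29 and 3.32 in PBS tumors. Without tumor 2, 24 of 29 were higher than in PBS with a median of 0.15. Of the 29, 0 then had an unadjusted p under 0.05, against 4.45% of all genes. Compared with Free PS473, 27 of 29 were higher with a median of 0.69. There 17 had an unadjusted p under 0.05, against 6.18% of all genes. Bst2, which tethers budding virus to the cell, ran from 107.5 FPKM in Free PS473 tumor 2 to 396.7 FPKM in PS473@NKMOF-101-[Mn] tumor 2. The correlation of the list's mean with the family's mean was 0.930 over 18 tumors.

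By list means, markers of T and NK cells, leukocytes and dendritic cells followed the family from tumor to tumor. Those of B cells did so less closely. In bulk tumor, fewer cells of a type and less RNA per cell cannot be told apart. All 10 leukocyte markers were tested, and 10 of 10 were higher in PS473@NKMOF-101-[Mn] than in Free PS473 (median log2 difference 0.53, 0 called) while 5 of 10 were higher than in PBS. Without PS473@NKMOF-101-[Mn] tumor 2 these counts were 6 and 0 of 10. Their summed FPKM ranged from 82.9 to 101 in PBS, 30.9 to 159 in Free PS473, 72.1 to 146 in PS473@CPs, 118 to 186 in NKMOF-101-[Mn], 94.3 to 187 in M5@NKMOF-101-[Mn] and 63.0 to 166 in PS473@NKMOF-101-[Mn]. The lowest tumor was Free PS473 tumor 2, which also had the lowest summed p200 level.

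Of 11 T and NK cell markers 3 were tested, and 3 of 3 were higher in PS473@NKMOF-101-[Mn] than in Free PS473 (median 0.92, 0 called, and 0.31 without PS473@NKMOF-101-[Mn] tumor 2). Against PS473@CPs and against NKMOF-101-[Mn], 1 of 3 markers was higher (medians -0.04 and -0.11). Against M5@NKMOF-101-[Mn], 0 of 3 markers were higher (median -0.23). Their sum over all 11 was 4.64 to 6.69 FPKM in PBS, 1.22 to 4.42 in Free PS473, 3.29 to 14.3 in PS473@CPs, 8.76 to 10.8 in NKMOF-101-[Mn], 8.76 to 12.9 in M5@NKMOF-101-[Mn] and 4.80 to 24.0 in PS473@NKMOF-101-[Mn]. The highest tumor by this sum was PS473@NKMOF-101-[Mn] tumor 2, where Gzmb (granzyme B) stood at 6.81 FPKM and Nkg7 at 6.70 FPKM. Cd3g, the other tested marker, stood at 2.07 FPKM there and was highest in NKMOF-101-[Mn] tumor 1 (2.37 FPKM). No marker of either list was at 0 throughout a group.

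The correlation of a list's mean with the p200 mean over 18 tumors was 0.952 for T and NK cell markers, 0.867 for leukocyte markers, 0.829 for dendritic cell markers, 0.634 for macrophage markers, 0.349 for B cell markers (none of the 4 passed the filter), 0.516 for skin epithelium markers and 0.04 for melanocyte markers. Of 7 dendritic cell markers 2 passed the filter, Batf3 (0.559 with the p200 mean) and Itgax (0.852). Zbtb46, the next most abundant of that list, stood at -0.268. Macrophage markers were highest in NKMOF-101-[Mn] tumor 1, with sums up to 585 FPKM in that group against 152 to 278 FPKM in PS473@NKMOF-101-[Mn]. They were lower than PBS for 9 of 12 tested genes in PS473@NKMOF-101-[Mn], where 0 passed. The part of the immune cell markers in the differences of p200 genes between groups was not tested.

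**Figure D5:**
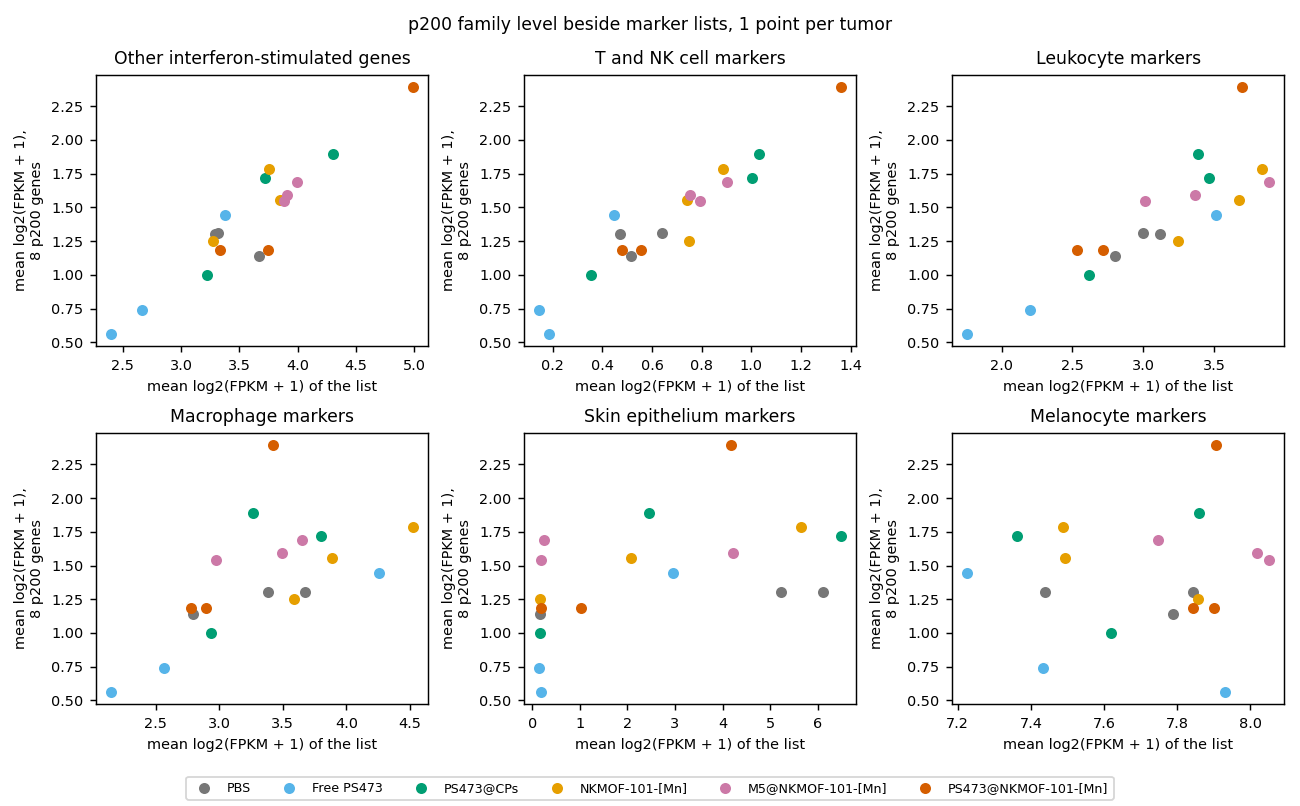
Mean log2(FPKM + 1) of the 8 p200 genes (vertical) against the mean of 6 lists of other genes (horizontal), with 1 point per tumor coloured by group. The p200 level rises with interferon-stimulated genes and T and NK cell markers (Pearson 0.930 and 0.952) and shows little relation to melanocyte markers (0.04), and skin epithelium markers split the tumors into 8 near 0 and 10 spread from 1.03 to 6.49.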

How the data were processed

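Poly(A) RNA from 18 B16F10 tumors was sequenced, and the authors deposited a table of FPKM for 41079 genes, together with the length of each gene. The submitters' processing notes name the build GRCm39. The aligner, the counting tool and the annotation are not given in the sources used here. Groups were taken from the sample titles, and every column of values was used. Fragments per tumor (17200000 to 28400000) were recovered from the steps between low FPKM values, of which 48.7% to 53.5% came out as whole fragments within 0.02, so no count model was used. No pair of tumors held identical values, and the labels name no batch.

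FPKM values were transformed to log2(FPKM + 1). The 12357 genes that averaged 1 FPKM or more were fitted in limma 3.58.1 under R 4.3.3, with 1 mean per group over 18 tumors and a variance trend, and two-sided p-values were adjusted by Benjamini-Hochberg within each comparison and called under 0.05. The procedure was tested on simulated data. Summaries used Python 3.11.15 with pandas 2.3.3, numpy 2.4.6 and scipy 1.17.1, and plots matplotlib 3.10.9. Same-numbered tumors were not paired (deviations correlated from -0.73 to 0.724), so no replicate block was used.

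Promoters came from RefSeq (GRCm38.p6) and transcripts from GENCODE M21. That build differs from the one of the FPKM values, which were used by symbol. The 8 members, and 15 lists of other genes written from gene names, were chosen with earlier results of these data known. Text names the members, genes from among the 3 most abundant of a list, any gene called, Cd274 and the 10 genes most like the family's mean. Not every list has all 3 named. Sting1, Cgas and Pycard were chosen by role after values were seen. A gene that this rule names is not reported here.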

Additional observations from a re-analysis of the deposited data

How the results depend on the processing

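Alternatives were a smaller pseudocount (0.1), every gene above 0 FPKM, a filter at 0.1 FPKM, quantile and upper-quartile scaling, the compared groups alone, no variance trend, array weights, a replicate block and leaving out each tumor. The 14 counts of members called were 0 by limma under all of them except array weights. Fits with a lower filter or none also held the weaker members, the others 4. Array weights gave 2 of 4 for PS473@NKMOF-101-[Mn] against Free PS473 (5.32% of genes). They gave 4 for M5@NKMOF-101-[Mn] (26% of genes) and 3 for NKMOF-101-[Mn] against Free PS473 (11.3% of genes). For any difference among the 6 groups they gave 4 (18.7% of genes). The weights did not converge and ran from 0.206 to 17.1, the highest for Free PS473 tumor 1; the cause was not tested. With array weights Ifi211 turned to -0.21 against PS473@CPs. With each tumor left out in turn, the count was 0 in every comparison. Of 52 fold changes, 17 changed sign when 1 tumor was left out. Against PBS, PS473@NKMOF-101-[Mn] ranged from -0.23 to 0.86 (Ifi203), -0.17 to 0.86 (Ifi204) and -0.10 to 0.70 (Ifi211). Against PS473@CPs it ranged from -0.35 to 0.74 (Ifi203), -0.67 to 0.36 (Ifi204), -0.43 to 0.47 (Ifi211) and -0.23 to 0.52 (Mndal), and against NKMOF-101-[Mn] from -0.29 to 0.80, -0.71 to 0.32, -0.30 to 0.50 and -0.17 to 0.58 for the same genes. Against M5@NKMOF-101-[Mn] it ranged from -0.58 to 0.51 (Ifi203), -0.80 to 0.23 (Ifi204) and -0.40 to 0.36 (Mndal). PS473@CPs against PBS ranged from -0.15 to 0.40 (Ifi203) and -0.0499 to 0.77 (Ifi211), and NKMOF-101-[Mn] against PBS from -0.0603 to 0.20 (Ifi203). Replicate numbers did not pair the tumors (4 of 18 correlated best with their own number); with the replicate block 0 members were called in each comparison, the smallest adjusted p being 0.734. Quantile normalization moved the median of all genes by up to 0.179 in a tumor. Depth limits Ifi205, Ifi209 and Aim2 most, with as few as 1, 9.5 and 11 fragments.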

Other observations

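Of 10 other p200 family symbols, 5 had a row in the table. Ifi206, next to Aim2 in the cluster, and Ifi213 had the ISRE core in their promoter windows and ran from 0.0438 to 2.40 FPKM and from 0.079 to 0.996 FPKM, each lowest in Free PS473 tumor 2 and highest in PS473@NKMOF-101-[Mn] tumor 2. Their correlations with the mean of the 8 members were 0.892 and 0.859 over 18 tumors. Ifi202b, which lies between Ifi203 and Ifi205, did not follow them, with a correlation of 0.25. It was 0 FPKM in 6 tumors and reached 11.2 FPKM in PS473@CPs tumor 2, 6.47 FPKM in PBS tumor 2 and 5.05 FPKM in Free PS473 tumor 3, while PS473@NKMOF-101-[Mn] tumor 2 held 0.206 FPKM. Its levels moved with the skin epithelium list. In the 8 tumors where that list's mean log2(FPKM + 1) was 0.146 to 0.239, Ifi202b was 0 to 0.0296 FPKM, and in the other 10 tumors, at 1.03 to 6.49, it was 0.0249 to 11.2 FPKM and above 0 in each. The part of skin in these values was not tested. The promoter window of Ifi202b held 1 GAS motif and no ISRE core, and 0% of its 75-base transcript runs occurred in another gene.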
